A study of Mus musculus with 6 samples.

Results

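Oxidative phosphorylation in mitochondria is carried out by 5 protein complexes, whose nuclear genes were followed here through ribosome pull-downs and homogenates of mouse brain. Members were the entries of the count table whose symbols begin as subunits of the complexes do (Nduf, Sdh, Uqcr, Cyc1, Cox4 to Cox8 and Atp5, with assembly factors left out) and that had at least 10 counts summed over the 6 libraries. Of 24421 entries, 84 matched by name and 82 reached that sum. The other two, the complex I gene Ndufs5 and the complex IV isoform gene Cox8c, were listed at 0 in every library. The 82 members comprised 34 genes of complex I, 4 of complex II, 9 of complex III, 18 of complex IV and 15 of complex V, plus Atp5s and Atp5sl, which carry the Atp5 prefix but are not subunits. Ndufa4, named for complex I, was counted with complex IV, where its protein is now placed. Beyond that sum no expression value entered the rule for members, but the members were chosen with earlier results of these data known.

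The mutant mice were AnkG icKO RiboTag animals (NG2CreERTM;Ank3F/F;Rpl22HA/+), in which tamoxifen removes Ank3 from cells with NG2 promoter activity; Ank3 encodes ankyrin-G, which anchors membrane proteins to the cytoskeleton. The controls were NG2CreERTM;Rpl22HA/+ animals, which carried the same driver and tag and had both Ank3 alleles intact. In RiboTag mice Cre recombination adds an HA tag to Rpl22, a protein of the large ribosomal subunit, and antibody to HA then recovers those ribosomes with their mRNA. All groups received tamoxifen at 100 mg/kg per day on 5 consecutive days at 8 weeks of age, and whole brains were taken 1 month later. Each library was made from 3 pooled brains. There were 2 icKO immunoprecipitates (IP), 2 control IP, 1 icKO input and 1 control input, where input is cleared homogenate that was not pulled down. NG2 is made by oligodendrocyte precursors and also by pericytes, the contractile cells on brain capillaries, so the tagged ribosomes were not restricted to one lineage by the driver. One label departs from the others: icKO IP replicate 1 is titled cKO, although its genotype field says AnkG icKO. Replicates are named as biological, but no label says whether the pools held different mice. The p-values therefore measure the spread between these libraries, which may be technical.

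Complex I takes electrons from NADH and complex II takes them from succinate. Both pass them by way of ubiquinone to complex III, and cytochrome c carries them on to complex IV, which reduces oxygen. Complexes I, III and IV pump protons, and complex V, the ATP synthase, makes ATP as protons flow back. Each complex other than complex II also has subunits made from mitochondrial DNA, none of which is among the entries of the table, so the values below concern the nuclear share alone. In brain this machinery is best known for the energy supply of neurons, and oligodendrocytes rely on it while they build myelin.

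The shallowest library held 18968806 counts and the deepest 23930812. Levels are given as CPM, counts scaled to a common library size, with TMM factors that set the bulk of genes equal between libraries. Groups were tested by quasi-likelihood in edgeR, and adjusted p-values are Benjamini-Hochberg values over the whole table tested; intervals of shares cover counting error only. Ank3 itself had 1163 and 1166 CPM in icKO IP, against 1386 and 1357 CPM in control IP, a log2 change of -0.23 ± 0.02 (SE, adjusted p = 1.311e-10); its input values were 347 CPM in icKO and 382 CPM in control. Of the cell type markers, all 15 listed oligodendrocyte precursor markers and 24 of 25 mature oligodendrocyte markers were higher in IP than in input, as were all 10 pericyte markers. Between genotypes 24 of 25 mature oligodendrocyte markers were lower in icKO IP, with summed levels of 18659 and 18521 CPM in icKO IP and 29827 and 29988 CPM in control IP. Summed neuronal markers stood at 7056 and 7089 CPM in icKO IP, against 5361 and 5399.6 CPM in control IP, but the list was mixed, with 7 of 15 markers higher, 3 lower and a median log2 change of 0.07. Of 12 astrocyte markers 7 were higher and 2 lower in icKO IP, with a median of 0.24. Of 12 microglial markers 2 were higher and 2 lower, with a median of 0.13. Of 10 endothelial markers 1 was higher and 3 lower, with a median of -0.39. Of all genes tested, 22.1% were higher and 25.2% lower. Of the 15 precursor markers, 12 were lower and 1 higher in icKO IP, with a median of -0.17. Their summed levels were 9756 and 9823 CPM in icKO IP, against 11159.8 and 11288 CPM in control IP. Scaled to the mature oligodendrocyte list, 14 were higher and 0 lower, where 12678 of 15069 genes tested were higher and 115 lower. The part of these shifts in the members' values was not tested. Fewer cells of a type and less RNA per cell cannot be told apart in these bulk samples. Because the mature oligodendrocyte markers moved so much, the genotype change in the IP and its difference from the input change were rerun under other scalings. With libraries scaled to that marker list, the median of all genes in the IP comparison moved by 0.68 on the log2 scale. With libraries scaled to summed markers of neurons, astrocytes, microglia and endothelium, it moved by -0.29. Neuronal markers had the largest of these sums, at 7073 CPM on average in icKO IP, against 2289 CPM for astrocyte markers. Under that scaling 9 of 15 neuronal markers were lower and 2 higher, with a median of -0.22. The comparison of the inputs was not run under either scaling.

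The promoters of these genes are known for a shared set of factors: NRF1, GABPA (an ETS factor also called NRF2) and YY1 bind many of them. RefSeq start sites on GRCm38.p6 were found for 65 of the 82 members, and windows from 250 bases before to 50 bases after each start were searched on both strands. The NRF1 motif, spelled GCGC, any base and then TGCGC, was present in 24.6% of members, against 5.19% of 27025 genes with a window and 7.17% of 17491 protein-coding ones. The ETS motif CCGGAAG was present in 24.6% of members, against 9.93% of all genes and 12.9% of protein-coding genes. The YY1 motif AANATGGC was likewise present in 24.6% of members, against 6.96% of all genes and 7.46% of protein-coding genes. At least 1 of the 3 motifs occurred in 63.1% of members and 19.4% of all genes. The YY1 motif was in 12 of 30 complex I promoters and in none of the 3 complex II or 5 complex III promoters searched. Of 70 stretches of 150 bases before a member's start, 12 held the NRF1 motif, 10 the ETS motif and 3 the YY1 motif. For each complex the following lines give the 150 bases before the start, 5′ to 3′ on the gene's strand, of the member that was lowest in icKO IP relative to control IP among those with an NRF1 or ETS match there; capitals mark the matches.
Ndufb4, complex I, chr16:37654369-37654518, minus strand: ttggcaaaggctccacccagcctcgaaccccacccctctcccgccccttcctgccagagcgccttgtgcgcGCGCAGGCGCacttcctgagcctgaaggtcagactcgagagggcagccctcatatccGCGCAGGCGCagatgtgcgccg
Sdhd, complex II, chr9:50603850-50603999, minus strand: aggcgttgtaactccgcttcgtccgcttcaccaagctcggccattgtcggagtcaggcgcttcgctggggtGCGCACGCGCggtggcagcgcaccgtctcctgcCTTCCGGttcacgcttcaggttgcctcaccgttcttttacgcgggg
Uqcr11, complex III, chr10:80406822-80406971, minus strand: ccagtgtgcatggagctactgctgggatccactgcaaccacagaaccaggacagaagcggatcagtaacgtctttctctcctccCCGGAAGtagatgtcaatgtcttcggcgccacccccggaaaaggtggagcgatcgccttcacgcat
Cox6a1, complex IV, chr5:115348959-115349108, minus strand: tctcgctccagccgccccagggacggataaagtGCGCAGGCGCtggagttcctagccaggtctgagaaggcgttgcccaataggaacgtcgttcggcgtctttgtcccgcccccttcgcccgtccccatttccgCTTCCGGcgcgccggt
Atp5e, complex V, chr2:174464102-174464251, minus strand: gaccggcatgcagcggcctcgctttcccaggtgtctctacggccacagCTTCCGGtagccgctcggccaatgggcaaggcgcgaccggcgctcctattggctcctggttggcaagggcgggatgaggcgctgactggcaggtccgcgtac
Ndufb4 held the NRF1 motif at 2 places, and Sdhd and Cox6a1 held an NRF1 and an ETS match each. The genotype change in the IP was also set beside the motifs: the median log2 change was -0.35 over 16 members with the NRF1 motif and -0.40 over 46 without it. For the ETS motif the medians were -0.42 over 16 members with it and -0.37 over 46 without it. The YY1 medians were -0.48 over 16 members with the motif and -0.37 over 46 without it.

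Most oxidative phosphorylation mRNAs were lower in icKO IP than in control IP. The members together made up 0.306% of all counts in both icKO IP libraries and 0.407% in both control IP libraries, with Wilson 95% intervals of at most 0.0027 percentage points to either side in these 4 libraries. The icKO input stood at 0.794% and the control input at 0.820%. Of 82 members 79 passed the filter on low counts in the IP comparison, the exceptions being the restricted isoform genes Cox7a1, Cox7b2 and Cox8b. Of the 79, 68 were lower in icKO IP and 1 was higher at an adjusted p under 0.05. Of all 15069 genes tested, 25.2% were lower and 22.1% were higher. Scaled to the mature oligodendrocyte list instead, 1 member was lower and 55 were higher, where 12678 of the 15069 genes were higher and 115 lower. The median log2 change of members was -0.38, against 0.00 over all genes tested, and it was 0.30 where the median of all genes was 0.69 with libraries scaled to the mature oligodendrocyte list. In 72 of the 79 both icKO IP libraries lay below both control IP libraries, in 1 they lay above, and in 6 the groups overlapped, where 36.7% of all genes were separated downward and 35.3% upward. Of the 68 lower members 48 stayed below the threshold in each of the 4 fits that left out 1 IP library. DESeq2 called 58 of 78 members lower, where it called 3141 of all 14542 genes lower and 2511 higher. Of the genes described below as lower, it did not call Atp5g1, Cox5a, Cyc1, Ndufc1 and Uqcr10, and it gave Cox6a2 no adjusted p.

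**Figure D1:**
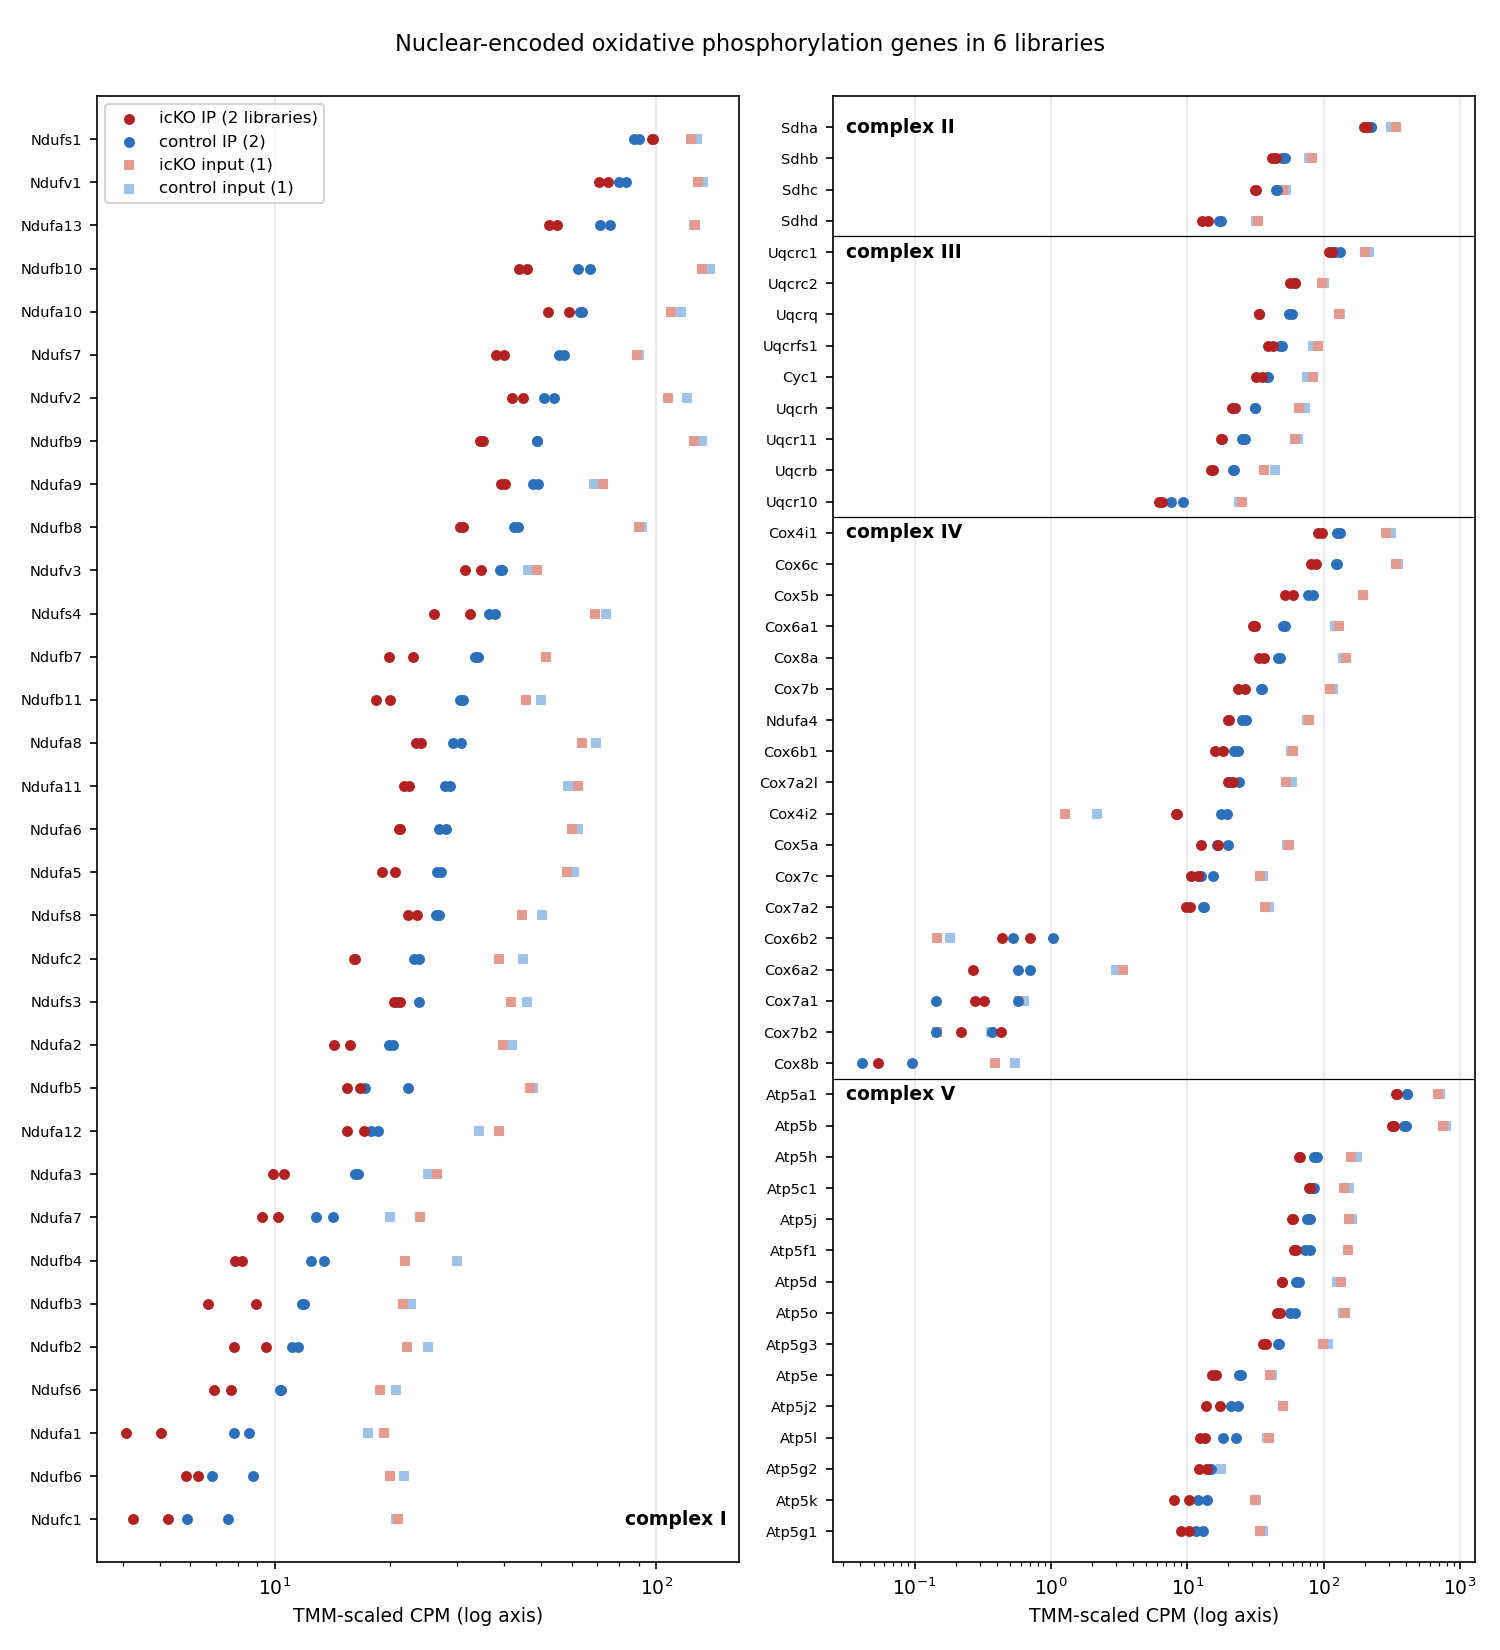
Each row is a member gene and each point a library, with TMM-scaled CPM on a log axis, in complex I (left) and complexes II to V (right), ordered within a complex by the control IP mean. Libraries of a group lie close together for most genes, icKO IP lies mostly left of control IP under TMM scaling, and both lie mostly left of the inputs, with Cox4i2 and Cox6b2 on the other side; counts of 0 (Cox6a2 and Cox8b in icKO IP replicate 2) have no point, and Atp5s, Atp5sl and 1 complex I gene are not drawn.

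In complex I, 30 of 34 genes were lower in icKO IP and 1 was higher, with a median log2 change of -0.40 that turned to 0.28 under scaling to the mature oligodendrocyte list. The 7 core genes, whose proteins carry the flavin and iron-sulfur clusters and are found in bacterial relatives too, and the 27 accessory genes, whose proteins surround that core, had different medians. Among accessory genes 25 of 27 were lower, with a median of -0.45, and among core genes 5 of 7 were lower and 1 was higher, with a median of -0.22; scaled to the mature oligodendrocyte list these medians were 0.24 and 0.47. With an offset for transcript length in each library, the medians were -0.29 over accessory and -0.10 over core genes. The contrast between core and accessory genes can also be read without any scaling between libraries. Core genes took 40.6% and 40.9% of complex I counts in icKO IP, against 37.2% and 36.7% in control IP, with Wilson intervals of at most 0.73 percentage points to either side in these libraries; they took 32.8% in icKO input and 33.1% in control input.

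Ndufs1, which encodes the large iron-sulfur subunit of the NADH-oxidising arm, was the one member that was higher. It had 97.6 and 97.8 CPM in icKO IP, 90.2 and 87.4 CPM in control IP, 123 CPM in icKO input and 128 CPM in control input. The log2 change in the IP was 0.14 ± 0.05 (adjusted p = 0.0149), the IP groups did not overlap, and its adjusted p was 0.149 without control IP replicate 2. DESeq2 gave it an adjusted p of 0.0542, and edgeR with library totals gave a change of 0.05 (adjusted p = 0.365). When markers of neurons, astrocytes, microglia and endothelium set the scale, edgeR called it lower, at -0.15 (adjusted p = 0.00834).

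Ndufv1, the subunit that binds NADH and flavin, had 70.9 and 74.9 CPM in icKO IP and 83.1 and 79.9 CPM in control IP, a log2 change of -0.16 ± 0.05 (adjusted p = 0.0136). Its adjusted p was 0.125 without icKO IP replicate 1 and 0.109 without control IP replicate 1. Ndufs7, another core iron-sulfur subunit, moved farthest of the core genes, with 38.1 and 39.9 CPM in icKO IP, 57.3 and 55.6 CPM in control IP and a log2 change of -0.53 ± 0.06. Ndufs3, a core subunit of the connecting arm, did not pass, with 20.5 and 21.3 CPM in icKO IP, 20.9 and 23.9 CPM in control IP and a log2 change of -0.10 ± 0.10 (adjusted p = 0.409).

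The lowest accessory value belonged to Ndufa1 (chrX:37187588-37191163, GRCm38), which encodes a small membrane-spanning subunit. It had 5.04 and 4.08 CPM in icKO IP, 7.81 and 8.59 CPM in control IP, 19.3 CPM in icKO input and 17.6 CPM in control input, with a log2 change of -0.84 ± 0.17 (adjusted p = 0.000131). Ndufb4, a membrane-arm subunit, followed with 8.20 and 7.89 CPM in icKO IP and 12.5 and 13.5 CPM in control IP, a change of -0.69 ± 0.13 (adjusted p = 6.19e-05). Both genes thus had lower values in both icKO IP libraries than in either control one. The inputs held 21.9 CPM of Ndufb4 in icKO and 30.0 CPM in control. Ndufc1 had 5.26 and 4.25 CPM in icKO IP, 7.53 and 5.90 CPM in control IP and a log2 change of -0.49 ± 0.19 (adjusted p = 0.0301). Ndufv3, which sits on the NADH-oxidising arm, had 34.8 and 31.5 CPM in icKO IP and 38.9 and 39.4 CPM in control IP, a change of -0.24 ± 0.07 (adjusted p = 0.00885). The Ndufc1 call was lost without icKO IP replicate 2 (adjusted p = 0.205) and without control IP replicate 1 (adjusted p = 0.269), and that of Ndufv3 without icKO IP replicate 2 (adjusted p = 0.123). The accessory genes Ndufa12 and Ndufb6 did not pass, at -0.16 ± 0.11 (adjusted p = 0.218) and -0.36 ± 0.17 (adjusted p = 0.0784).

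**Figure D2:**
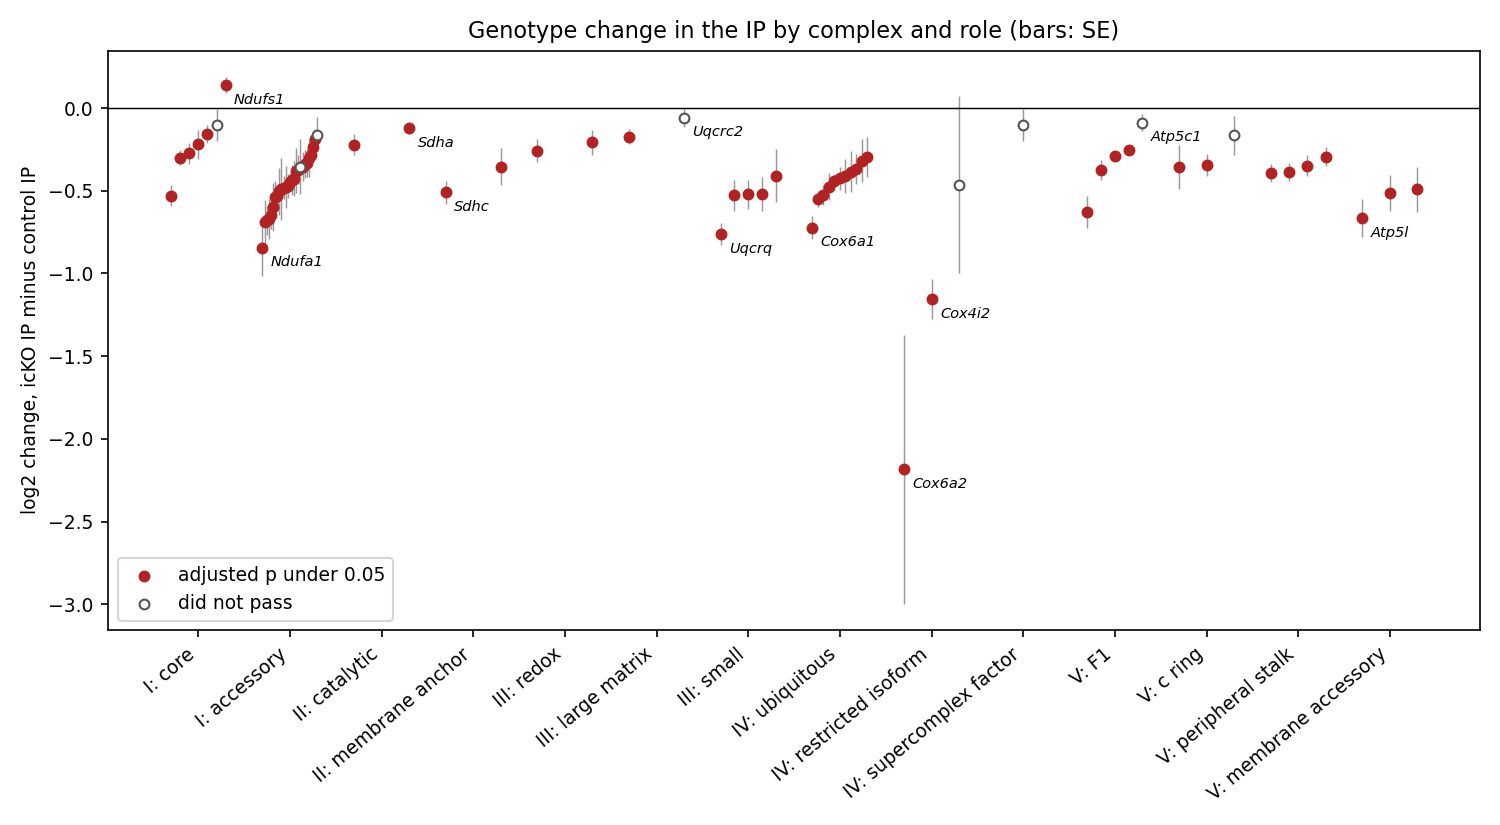
Each point is a member tested in the IP, placed by complex and role, with the log2 change of icKO IP minus control IP under TMM scaling and its standard error as a bar; filled points passed an adjusted p of 0.05. Nearly all points lie below 0, with Ndufs1 above it and Cox4i2 and Cox6a2 far below. Scaled to the mature oligodendrocyte list, the median is 0.30 over the members and 0.69 over all genes tested.

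All 4 genes of complex II, which is also the succinate dehydrogenase of the citric acid cycle, were lower in icKO IP, with a median of -0.29 that became 0.40 under scaling to the mature oligodendrocyte list. Sdha, the flavoprotein, had 208 and 199.5 CPM in icKO IP and 222 and 221 CPM in control IP, against 338 CPM in icKO input and 311 CPM in control input. Its log2 change of -0.12 ± 0.03 (adjusted p = 0.00356) was among the smallest that passed. Sdhb, the iron-sulfur subunit, had 42.1 and 44.8 CPM in icKO IP and 52.1 and 49.4 CPM in control IP, a change of -0.22 ± 0.07 (adjusted p = 0.00617). The membrane anchors, which hold the complex in the inner membrane, had the larger changes. Sdhc had 31.6 and 31.7 CPM in icKO IP and 45.5 and 44.9 CPM in control IP, a change of -0.51 ± 0.07 (adjusted p = 3.46e-07). Sdhd had 14.3 and 12.8 CPM in icKO IP and 17.1 and 17.6 CPM in control IP, a change of -0.35 ± 0.11 (adjusted p = 0.00902). In each of the 4 genes both icKO IP libraries lay below both control IP libraries. As a share of complex II counts, the anchors took 15.5% and 15.4% in icKO IP, 18.6% and 18.8% in control IP, 16.6% in icKO input and 18.01% in control input. Without icKO IP replicate 2 the adjusted p was 0.0502 for Sdha and 0.0959 for Sdhd, and for Sdhb it was 0.0655 without icKO IP replicate 1 and 0.068 without control IP replicate 1.

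In complex III 8 of 9 genes were lower in icKO IP, with a median of -0.41 that became 0.28 under scaling to the mature oligodendrocyte list. Both redox subunits were lower. Cyc1, cytochrome c1, had 35.4 and 31.7 CPM in icKO IP and 38.8 CPM in both control IP libraries, a log2 change of -0.21 ± 0.07 (adjusted p = 0.0228). Uqcrfs1, the Rieske iron-sulfur protein, had 42.5 and 39.2 CPM in icKO IP and 50.0 and 47.8 CPM in control IP, a change of -0.26 ± 0.07 (adjusted p = 0.00205). Of the large matrix-facing subunits, Uqcrc1 had 110.4 and 115 CPM in icKO IP and 121 and 133 CPM in control IP, a change of -0.17 ± 0.05 (adjusted p = 0.00234). Uqcrc2 overlapped between genotypes, with 56.7 and 61.4 CPM in icKO IP, 61.2 and 61.8 CPM in control IP and a change of -0.06 ± 0.06 (adjusted p = 0.438).

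The 5 small subunits of complex III were all lower in icKO IP, with a median of -0.52; under scaling to the mature oligodendrocyte list their median was 0.16 and none passed in either direction (scaled to the markers of other cell types, all 5 were lower). Uqcrq (chr11:53427922-53430831), a subunit near the quinone sites, had 33.7 and 33.4 CPM in icKO IP, 58.3 and 55.7 CPM in control IP, 129 CPM in icKO input and 132 CPM in control input. Its change of -0.76 ± 0.07 (adjusted p = 2.46e-11) came with a difference between the IP groups far wider than that within them. Uqcr11 had 17.8 and 17.9 CPM in icKO IP and 25.1 and 26.4 CPM in control IP, a change of -0.53 ± 0.09 (adjusted p = 2.09e-05). Uqcr10 had 6.22 and 6.51 CPM in icKO IP and 7.62 and 9.25 CPM in control IP, a change of -0.41 ± 0.16 (adjusted p = 0.0333). The small subunits took 27.96% and 27.7% of complex III counts in icKO IP, against 34.8% and 33.9% in control IP, 40.2% in icKO input and 41.6% in control input. Among complex III calls, that of Cyc1 had an adjusted p of 0.246 without icKO IP replicate 2, 0.0651 without control IP replicate 1 and 0.0678 without control IP replicate 2. The Uqcrc1 call was lost without control IP replicate 2 (adjusted p = 0.138). The Uqcr10 call was lost without icKO IP replicate 1 (adjusted p = 0.116), icKO IP replicate 2 (0.0594) or control IP replicate 2 (0.311).

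Complex IV took a smaller share of the members' counts in icKO IP than in control IP, a difference that does not depend on scaling. It held 13.1% and 13.8% of member counts in icKO IP, 15.1% and 15.0% in control IP, 20.0% in icKO input and 19.9% in control input, with Wilson intervals of at most 0.28 percentage points to either side. All 11 ubiquitously expressed genes were lower in icKO IP, with a median of -0.43 that became 0.26 under scaling to the mature oligodendrocyte list. Over all complex IV genes tested the median was -0.44, and it was -0.26 with an offset for transcript length. With that offset the median was -0.27 in complex I, -0.19 in complex II, -0.24 in complex III and -0.25 in complex V. The part of length in the complex IV share was not tested. Cox4i1, the ubiquitous form of the regulatory subunit IV, had 98.1 and 91.2 CPM in icKO IP, 132 and 126 CPM in control IP, 289 CPM in icKO input and 315 CPM in control input, a change in IP of -0.44 ± 0.05 (adjusted p = 1.31e-09). Cox6c had 81.1 and 88.0 CPM in icKO IP, 125 and 123 CPM in control IP, 339 CPM in icKO input and 353 CPM in control input, a change of -0.55 ± 0.05 (adjusted p = 1.55e-11). In both genes the icKO IP libraries lay below the control ones by several times the distance between libraries of a group.

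Cox6a1 had the largest change of the ubiquitous genes, with 30.5 and 31.3 CPM in icKO IP, 50.3 and 51.8 CPM in control IP, 131 CPM in icKO input, 122 CPM in control input and a change of -0.72 ± 0.07 (adjusted p = 1.93e-10). Cox6b1, which faces cytochrome c, had 15.9 and 18.2 CPM in icKO IP and 23.4 and 21.9 CPM in control IP, a change of -0.41 ± 0.10 (adjusted p = 0.00108). Cox8a had 33.7 and 36.5 CPM in icKO IP and 46.7 and 47.6 CPM in control IP, a change of -0.43 ± 0.07 (adjusted p = 5.95e-06). These 3 genes were separated between genotypes without overlap. Ndufa4 had 20.4 and 19.9 CPM in icKO IP, 27.0 and 25.1 CPM in control IP, 78.4 CPM in icKO input and 75.8 CPM in control input. Cox7a2 had 9.76 and 10.5 CPM in icKO IP and 13.1 and 13.3 CPM in control IP, a change of -0.38 ± 0.13 (adjusted p = 0.012). Cox5a overlapped, with 12.7 and 16.9 CPM in icKO IP and 19.9 and 16.6 CPM in control IP, and its change of -0.30 ± 0.12 passed narrowly (adjusted p = 0.0462). The Cox5a call was lost without icKO IP replicate 1 (adjusted p = 0.578) and without control IP replicate 1 (0.335), and the Cox7a2 call without icKO IP replicate 1 (0.0812). Cox7a2l, which joins complexes III and IV into supercomplexes, overlapped at 19.8 and 21.7 CPM in icKO IP and 24.1 and 20.7 CPM in control IP, with a change of -0.10 ± 0.10 (adjusted p = 0.416).

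The tissue-restricted isoforms of complex IV are replacements for ubiquitous subunits in particular tissues. Cox4i2 (chr2:152754173-152765037), the alternative form of subunit IV known from lung, had 8.47 and 8.28 CPM in icKO IP, 19.6 and 17.8 CPM in control IP, 1.27 CPM in icKO input and 2.19 CPM in control input. The icKO IP level was thus less than that of control IP in each library, and both exceeded the inputs. Its log2 change between genotypes in the IP was -1.15 ± 0.12 (adjusted p = 1.47e-09), and it was the one member still lower under scaling to the mature oligodendrocyte list. Of the counts of the pair, Cox4i2 took 7.95% and 8.32% in icKO IP, against 12.9% and 12.4% in control IP, while it took 0.436% in icKO input and 0.690% in control input. The exact 95% intervals of the icKO IP shares reached up to 9.69% and those of the control IP shares down to 11.3%. Levels of the 10 pericyte markers moved alongside: all 10 were lower in icKO IP, with a median of -0.86, and their summed level was 1208 and 1223 CPM in icKO IP, 2221 and 2241 CPM in control IP, 152 CPM in icKO input and 156 CPM in control input, and none was at 0 in any library. Among them Kcnj8, a channel subunit gene of pericytes, changed by -1.29 and Higd1b by -1.56. The part of these cells in the Cox4i2 values was not tested.

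Cox6a2, the heart and muscle form of subunit VIa, was rare in the IP: it had 5 and 0 counts in icKO IP, 12 and 17 in control IP, 69 in icKO input and 66 in control input. It passed the genotype test (adjusted p = 0.0266), but not without icKO IP replicate 2 (adjusted p = 0.310), control IP replicate 1 (0.0698) or control IP replicate 2 (0.162). Cox6b2, best known from testis, had 13 and 8 counts in icKO IP, 11 and 25 in control IP, 3 in icKO input and 4 in control input. The genotypes overlapped (adjusted p = 0.504), and the counts were larger in each IP library than in either input. Cox7a1, the muscle form of subunit VIIa, had 6 and 5 counts in icKO IP, 3 and 14 in control IP, 12 in icKO input and 14 in control input. Cox8b, another heart and muscle form, had 1 and 0 counts in icKO IP, 2 and 1 in control IP, 8 in icKO input and 12 in control input. Cox7b2, an isoform known from testis, had 8 and 4 counts in icKO IP, 3 and 9 in control IP, 3 in icKO input and 8 in control input. At these depths no difference in Cox7a1, Cox7b2 or Cox8b between genotypes was detectable in the IP.

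**Figure D3:**
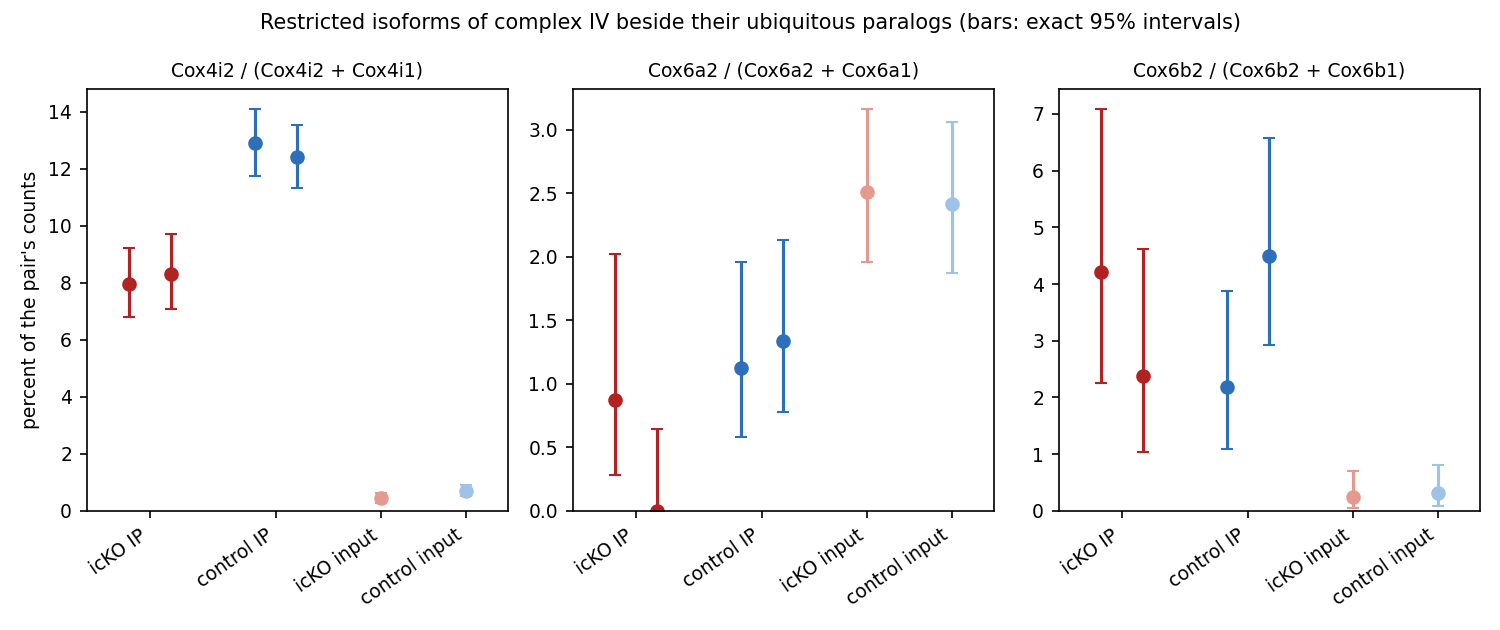
Each point is a library, with the percent of a paralog pair's counts that belongs to the restricted isoform and its exact 95% interval (counting error only), for icKO IP, control IP, icKO input and control input. In the first panel the Cox4i2 share lies between 7.95% and 8.32% in icKO IP and at 12.4% and 12.9% in control IP, and the intervals of Cox6b2 overlap between genotypes.

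In complex V 13 of 15 genes were lower in icKO IP, with a median of -0.36 that became 0.33 under scaling to the mature oligodendrocyte list. The F1 genes encode the catalytic head. Atp5a1, the alpha subunit, had 346 and 339.9 CPM in icKO IP and 409 CPM in both control IP libraries, against 687 CPM in icKO input and 709.8 CPM in control input. Atp5b, the catalytic beta subunit, had 327 and 320.0 CPM in icKO IP and 400.0 and 392 CPM in control IP, against 754 CPM in icKO input and 794 CPM in control input. They fell by 0.25 ± 0.03 and 0.29 ± 0.03 on the log2 scale (adjusted p = 4.88e-09 and 4.72e-10). Per kilobase of the longest annotated transcript, the level of Atp5b was 169 CPM on average in icKO IP and 207 CPM in control IP, ahead of 128 and 153 CPM for Atp5a1, and of 124 and 169 CPM for Cox4i1.

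Atp5c1, the rotating gamma subunit, did not pass, with 80.1 and 78.5 CPM in icKO IP, 83.6 and 85.2 CPM in control IP and a change of -0.09 ± 0.05 (adjusted p = 0.15). Atp5e, the small epsilon subunit, had 15.3 and 16.2 CPM in icKO IP and 24.9 and 23.8 CPM in control IP, a change of -0.63 ± 0.10 (adjusted p = 2.81e-06). Among the 5 F1 genes, epsilon had the lowest change and gamma the one nearest to 0. The 4 peripheral stalk genes were all lower, from -0.39 to -0.30, and so were the 3 membrane accessory genes, with a median of -0.51; scaled to the mature oligodendrocyte list, the medians were 0.32 and 0.17. Atp5l, subunit g of the membrane part, had 12.5 and 13.6 CPM in icKO IP and 18.4 and 22.9 CPM in control IP, a change of -0.67 ± 0.12 (adjusted p = 1.3e-05). Counts of F1 genes were 71.1% and 70.8% of complex V in icKO IP, 69.3% and 69.5% in control IP, 66.6% in icKO input and 66.7% in control input.

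The 3 genes of the c ring, the rotor that protons turn, encode the same mature protein. Atp5g1 had 8.96 and 10.3 CPM in icKO IP and 11.6 and 13.0 CPM in control IP, a change of -0.36 ± 0.13 (adjusted p = 0.0258). Atp5g3 had 38.0 and 36.0 CPM in icKO IP and 46.6 and 47.5 CPM in control IP, a change of -0.35 ± 0.07 (adjusted p = 8.65e-05). Atp5g2 did not pass, with 12.2 and 14.1 CPM in icKO IP, 14.9 and 14.7 CPM in control IP and a change of -0.17 ± 0.12 (adjusted p = 0.255). The Atp5g1 call was lost without icKO IP replicate 1 (adjusted p = 0.195) and without control IP replicate 2 (0.174). Of the name matches that are no subunits, Atp5s had 3.91 and 3.70 CPM in icKO IP and 3.95 and 4.09 CPM in control IP, and Atp5sl had 15.6 and 14.7 CPM in icKO IP and 13.6 and 16.1 CPM in control IP. Neither passed, at -0.08 ± 0.21 and 0.03 ± 0.11.

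Against the inputs, most oxidative phosphorylation mRNAs were lower in the pull-down. Of 80 members tested 76 were lower in IP than in input and 2 were higher, where 35.1% of all 15451 genes were lower and 34.8% higher. The median log2 change of IP minus input was -1.20, against 0.01 over all genes. It was -1.15 in complex I, -0.69 in complex II, -1.14 in complex III, -1.63 in complex IV and -1.20 in complex V. Ndufc1 was lowest in complex I at -1.88 ± 0.16, and Ndufv3 was nearest to 0 at -0.40 ± 0.09. Among ubiquitous complex IV genes all 11 were lower, from -1.94 to -1.45.

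Cox4i2 was 7.71-fold higher in IP than in input (log2 2.95 ± 0.17, adjusted p = 2.43e-07), and Cox6b2 was higher by 2.01 ± 0.62 on few counts (adjusted p = 0.0146); the Cox6b2 call was lost without the control input (adjusted p = 0.0963). Atp5g2 was the subunit gene of complex V that did not pass, at -0.21 ± 0.11 (adjusted p = 0.109), with 14.6 CPM in icKO input and 17.8 CPM in control input, close to its IP levels. The other c ring genes were lower in IP, Atp5g1 by -1.68 and Atp5g3 by -1.31. Taking the genotypes apart, the median was -1.37 in icKO and -1.001 in control, with 76 of 81 members lower in icKO and 77 of 81 in control. Of all 15936 genes, 34.8% were lower and 34.7% higher in icKO, and 33.9% were lower and 34.4% higher in control. Beside this, 14 of 15 neuronal and all 12 astrocyte markers were lower in IP than in input, with medians of -2.20 and -1.71, and none was at 0; their part in the members' values was not tested.

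**Figure D4:**
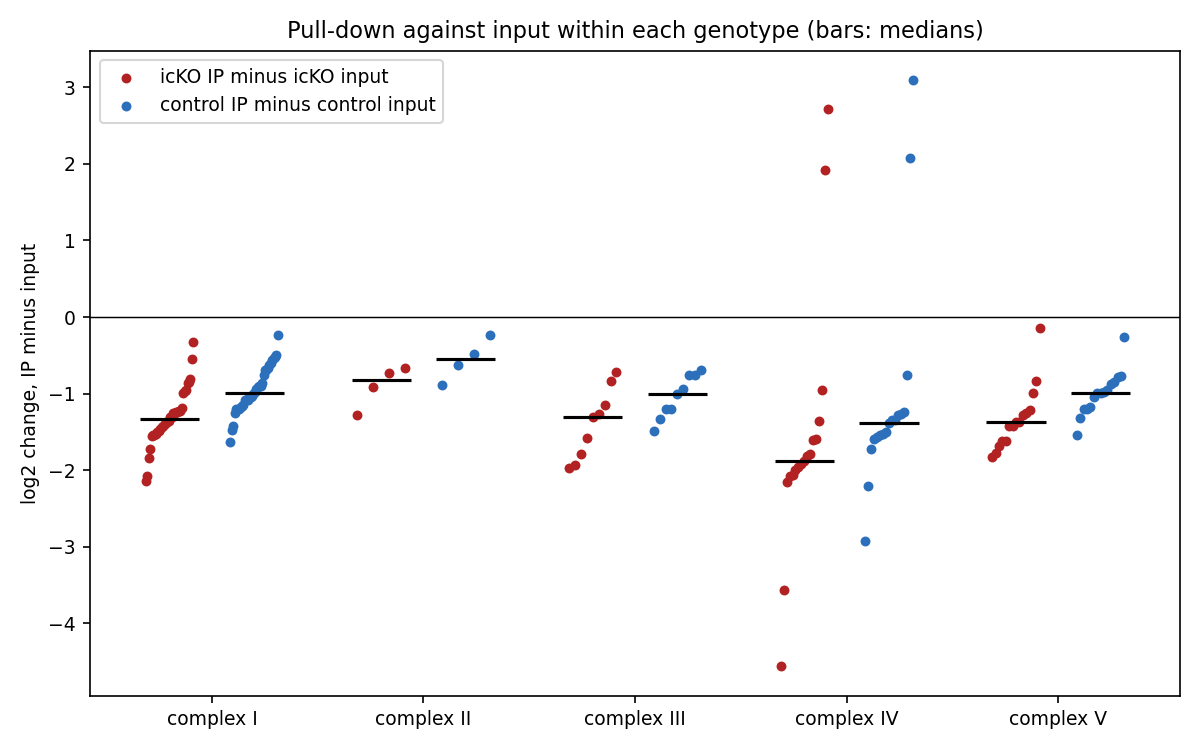
Each point is a member tested, by complex, with the log2 change of IP minus input in icKO (red) and in control (blue), and black bars mark medians. Members lie below 0 apart from Cox4i2 and Cox6b2. Over all members the icKO median of -1.37 lies below the control median of -1.001 under TMM scaling. With libraries scaled to the mature oligodendrocyte list, the median difference of the genotype changes is 0.33 over members and 0.67 over all genes.

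The genotype change differed between IP and homogenate for many of these genes. In a test of the difference between both changes, 40 of 81 members were lower and 0 were higher. Of all 15936 genes, 13.9% were lower and 9.67% higher. Scaled to the mature oligodendrocyte list, 0 members were lower and 51 higher, where 10307 of the 15936 genes were higher and 59 lower. At an unadjusted p under 0.05 and with TMM scaling, 53 members were lower and 1 was higher, but no share of all genes was counted at that threshold. The median difference was -0.36, against -0.01 over all genes, and 0.33 with that other scaling, against 0.67. By complex, 14 of 34 genes passed downward in complex I, 3 of 4 in complex II, 5 of 9 in complex III, 8 of 17 in complex IV and 10 of 15 in complex V. Ndufa1 had the lowest value among genes that passed, at -0.99 ± 0.23 (adjusted p = 0.00182), followed by Cox6a1 at -0.83 ± 0.09 (adjusted p = 5.72e-08). Each genotype had 1 input, which was assumed to vary like the IP libraries. Between the inputs themselves, which have no replicate check, 4 of 80 members differed by more than 1.2-fold, all downward, where 12.4% of all genes were past that fold downward and 12.5% upward. They were Cox4i2 at -0.75 on the log2 scale, Ndufb4 at -0.45, Atp5s at -0.37 and Atp5g2 at -0.29. The members' median between inputs was -0.06.

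Lists of genes around the pathway were counted in the same fit, in which 25.2% of all genes were lower and 22.1% higher. The counts of lower genes among assembly factors and citric acid cycle genes were near that background share. Of 47 assembly factors tested in the IP, 10 were lower and 2 higher in icKO, with a median of -0.02. Scaled to the mature oligodendrocyte list, 34 were higher, with a median of 0.67. Under that scaling 12678 of all 15069 genes were higher and 115 lower, with a median of 0.69. Coa3 and Cox17, which serve complex IV assembly, changed by -0.61 and -0.50, while Lrpprc, which stabilises mitochondrial mRNA, and Ttc19, of complex III, rose by 0.34 and 0.38. Among genes of mobile electron carriers 4 of 13 were lower and 1 higher, with a median of -0.03; scaled to the mature oligodendrocyte list, 0 were lower and 12 higher, with a median of 0.65. Cycs, cytochrome c, had 24.99 and 24.5 CPM in icKO IP and 32.8 and 33.0 CPM in control IP, a change of -0.41 ± 0.08. In the citric acid cycle list 5 of 19 were lower and 1 higher, with a median of -0.09 that became 0.59 under that scaling. Citrate synthase (Cs) changed by -0.22 and Mdh2 by -0.21.

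Among glycolysis genes 10 of 16 were lower and 1 higher, with a median of -0.21 that became 0.48 when scaled to the mature oligodendrocyte list. Aldoa had 377 and 360.1 CPM in icKO IP and 523 and 534 CPM in control IP, a change of -0.52 ± 0.03, whereas Pfkp rose by 0.34 ± 0.04. Of 77 mitochondrial ribosomal protein genes 30 were lower and 2 higher, with a median of -0.24, which became 0.45. Of 19 regulators of mitochondrial biogenesis 7 were higher and 1 lower, with a median of 0.12. DESeq2 called 3 higher and 1 lower, where it called 2511 of all 14542 genes higher and 3141 lower. Scaled to the mature oligodendrocyte list, 18 were higher and 0 lower, with a median of 0.81. Of all 15069 genes 12678 were then higher and 115 lower. Scaled to markers of other cell types, 1 was higher and 9 lower, with a median of -0.16. Of all 15069 genes 981 were then higher and 7956 lower. The regulators named next are given under TMM scaling alone. Ppargc1a, the coactivator PGC-1alpha, had 53.7 and 50.1 CPM in icKO IP and 40.3 and 39.8 CPM in control IP, a change of 0.38 ± 0.07 (adjusted p = 1.681e-05). Ppargc1b had 43.0 and 46.0 CPM in icKO IP and 29.7 and 30.9 CPM in control IP, a change of 0.55 ± 0.07 (adjusted p = 1.366e-07), and Nrf1 rose by 0.21 ± 0.07 (adjusted p = 0.0204).

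Transcript length moved with the genotype change. The longest annotated transcript had a median of 865 bases over members and 3175 bases over genes tested, and 47 of 81 members with a length were under 1 kb. The median log2 change in the IP was -0.49 over 44 members under 1 kb, -0.27 over 26 members of 1 to 2 kb and -0.30 over 8 longer ones. Other genes had medians of -0.16, -0.13 and 0.04 in the same classes, over 849, 2641 and 10924 genes. Across 78 members Pearson's r between log2 length and log2 change was 0.40 and Spearman's rho was 0.57; members share libraries and are not independent. With an offset for length in each library, 46 of 78 members were lower and 1 was higher, and the median was -0.25. In that fit 3896 of all 14492 genes were lower and 2546 higher, with a median of -0.03. Complex III medians were then -0.32 over small, -0.15 over redox and -0.06 over large matrix subunits. In complex V they were -0.37 over membrane accessory and -0.26 over F1 genes. Among named genes, that offset ended the calls of Atp5g3, Cox5a, Cox6b1, Cox7a2, Cyc1, Ndufc1, Ndufv1, Ndufv3, Sdhb, Sdhd, Uqcr10 and Uqcrc1. The part of length in the remaining difference was not tested.

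**Figure D5:**
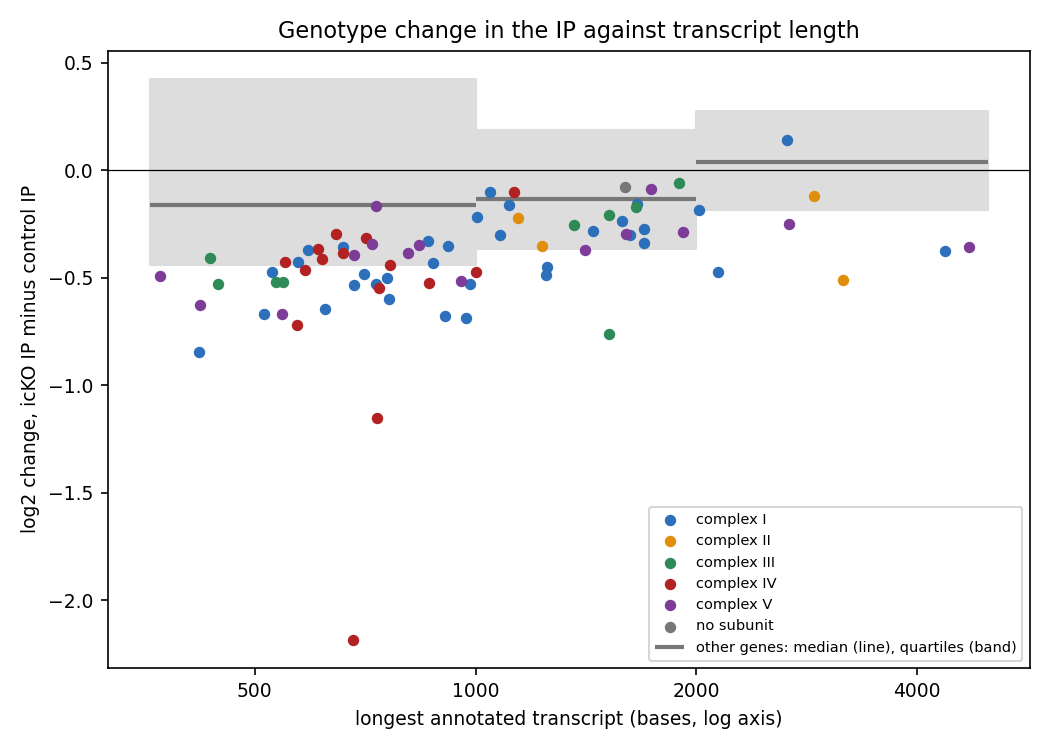
Each point is a member tested in the IP, coloured by complex, with its longest annotated transcript in bases on a log axis and its log2 change of icKO IP minus control IP under TMM scaling. Grey lines and bands give the median and quartiles of other genes under 1 kb, of 1 to 2 kb and over 2 kb. In the shortest class lie 44 members, with a median of -0.49. Scaling to the mature oligodendrocyte list lifts the median to 0.30 over all members and to 0.69 over all genes tested.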

How the data were processed

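Whole brain homogenates (input) and HA pull-downs from them were sequenced with a stranded total RNA kit, per the labels' protocols. The deposited table holds read counts per gene symbol made by the authors; reads were trimmed with Trimmomatic 0.39 and aligned to mm10 with STAR 2.7.10b, per the submitters' processing notes. For the counter, annotation, strand setting, molecular identifiers and reads matching several places, the method was not given in the sources used here. Genes with near-identical copies or pseudogenes are therefore uncertain. Of 24421 rows, 10 were blank in both inputs and left out.

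The counts were tested with edgeR 4.0.16 in R 4.3.3: TMM, filterByExpr, quasi-likelihood F tests, two-sided, Benjamini-Hochberg adjustment over all genes tested, threshold 0.05. Genotypes were compared over the 4 IP libraries, IP with input over 6 libraries with a genotype term, and the difference of changes over 4 group means. The steps were tested on simulated data. DESeq2 1.42.0, other scalings and filters, a length offset, a replicate block and leaving out each library were alternatives. Lengths came from GENCODE annotation of GRCm38, available for 95.654% of rows. Members, gene lists and tests were chosen with earlier results of these data known. Named genes were core and catalytic subunits, paralog pairs, the 2 ends of each complex in the IP and against input, and calls against the majority; other genes were chosen after their values were seen. The values of 1 member are not reported here, and it stays in counts, sums and medians.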

Additional observations from a re-analysis of the deposited data

Results flagged for a closer look

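By edgeR's test of the difference itself, the genotype change in the IP differed from that in the input for 40 of 81 members. All had the lower value in the IP under TMM scaling, where 13.9% of all 15936 genes were lower and 9.67% higher. With libraries scaled to the mature oligodendrocyte list, 0 members were lower and 51 higher, where 10307 genes were higher and 59 lower. Among named genes the log2 difference was -0.99 for Ndufa1 of complex I, and those of complex II were Sdha -0.25, Sdhb -0.29 and Sdhc -0.44. In complex III they were Cyc1 -0.37, Uqcr11 -0.46, Uqcrfs1 -0.39 and Uqcrq -0.73. In complex IV they were Cox4i1 -0.33, Cox6a1 -0.83, Cox6b1 -0.47, Cox6c -0.50 and Cox8a -0.51, and in complex V Atp5a1 -0.21, Atp5b -0.22, Atp5e -0.60 and Atp5l -0.74. Each genotype had 1 input. The Cyc1 call was lost without icKO IP replicate 2 (adjusted p = 0.0513), and the Sdhb call without icKO IP replicate 1 (adjusted p = 0.0824) or control IP replicate 1 (adjusted p = 0.0959). Summed mature oligodendrocyte markers were 18659 and 18521 CPM in icKO IP, 29827 and 29988 CPM in control IP, 4506 CPM in icKO input and 4519 CPM in control input, and their part in these differences was not tested. No group had enough libraries for a check of outlying samples.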

How the results depend on the processing

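Scaling had the greatest effect. With libraries scaled to the mature oligodendrocyte list, 1 member was lower and 55 were higher in icKO IP, the members' median was 0.30 and 12793 genes passed in place of 7119, of which 12678 were higher and 115 lower. With libraries scaled to markers of neurons, astrocytes, microglia and endothelium, 0 members were higher, the median was -0.67, and 981 genes were higher and 7956 lower. For the difference between the changes in IP and input, the mature oligodendrocyte scaling gave 0 members lower, 51 higher and a median of 0.33. It left 10366 genes past the threshold, of which 10307 were higher and 59 lower. The other scaling gave 68 members lower, a median of -0.61 and 5770 genes, of which 509 were higher and 5261 lower. Both scalings were chosen after seeing the data. Library totals without TMM gave medians of -0.47 in the IP, -1.27 for IP minus input and -0.43 for the difference, with 0 members higher in the IP. DESeq2 called 58 members lower and 0 higher. Without the filter on low counts the IP median was -0.40, and with genes of at least 5 CPM it was -0.35, while IP minus input then had 1 member higher, the difference had 1 higher and a median of -0.32, and 1385 genes were past 1.2-fold between inputs in place of 3840. The offset for transcript length gave a median of -0.25. Within control the IP minus input median was -1.001, and within icKO it was -1.37 with 1 member higher. Leaving out 1 library at a time, members higher in icKO IP ranged from 0 to 1, the IP median from -0.41 to -0.38, members higher in IP than input from 1 to 2, that median from -1.37 to -1.004, and the median difference from -0.37 to -0.34; Ndufs1 was the member lost, without control IP replicate 2. No source pairs libraries by replicate number, and the deviations of same-numbered IP libraries correlated at -0.003; with the replicate block 68 members were lower, 1 was higher and the median was -0.38.

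Named genes changed sign as follows, and the cause was not tested. In the IP under the mature oligodendrocyte scaling the log2 changes were Atp5a1 0.43, Atp5b 0.40, Atp5c1 0.60, Atp5e 0.055, Atp5g1 0.33, Atp5g2 0.52, Atp5g3 0.34, Atp5l 0.017, Atp5s 0.61, Cox4i1 0.24, Cox5a 0.39, Cox6b1 0.27, Cox6b2 0.22, Cox6c 0.14, Cox7a2 0.30, Cox7a2l 0.58, Cox8a 0.26, Cyc1 0.48, Ndufc1 0.19, Ndufs3 0.58, Ndufv1 0.53, Ndufv3 0.45, Sdha 0.56, Sdhb 0.46, Sdhc 0.17, Sdhd 0.33, Uqcr10 0.28, Uqcr11 0.16, Uqcrc1 0.51, Uqcrc2 0.63, Uqcrfs1 0.43. Under the scaling to other cell types they were Atp5sl -0.26, Ndufs1 -0.15, with library totals Atp5sl -0.059, and with the length offset Atp5g2 0.024, Cox7a2l 0.024, Ndufs3 0.043. The difference between IP and input changes under the mature oligodendrocyte scaling was Atp5a1 0.48, Atp5b 0.47, Atp5e 0.089, Atp5g1 0.40, Atp5g3 0.47, Cox4i1 0.36, Cox4i2 0.32, Cox5a 0.34, Cox6b1 0.22, Cox6b2 0.53, Cox6c 0.19, Cox7a1 0.49, Cox7a2 0.40, Cox8a 0.17, Cyc1 0.32, Ndufb4 0.45, Ndufc1 0.18, Ndufv1 0.57, Ndufv3 0.36, Sdha 0.44, Sdhb 0.39, Sdhc 0.25, Sdhd 0.29, Uqcr10 0.20, Uqcr11 0.23, Uqcrc1 0.60, Uqcrc2 0.67, Uqcrfs1 0.30. Under the scaling to other cell types it was Atp5c1 -0.23, Atp5g2 -0.13, Atp5sl -0.18, Cox7a2l -0.23, Ndufs1 -0.056, Ndufs3 -0.21, with library totals Atp5c1 -0.052, Atp5sl -0.0074, Cox7a2l -0.048, Ndufs3 -0.034, and with genes of at least 5 CPM Uqcrc2 0.019. With 1 library left out, IP values ranged over Atp5sl -0.085 to 0.15, Cox6b2 -0.85 to 0.12, Cox7a2l -0.22 to 0.0047, and differences over Atp5sl -0.050 to 0.19, Cox6b2 -0.55 to 0.42, Cox7a1 -0.82 to 1.15, Cox7a2l -0.089 to 0.13, Cox8b -3.14 to 0.20, Ndufs3 -0.056 to 0.14, Uqcrc2 -0.077 to 0.036. Genes of few counts, such as Cox6b2 and Cox7a1, are limited by depth.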
